A study of Mus musculus with 45 samples.

Results

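The genes described here encode the contractile apparatus of skeletal muscle and the proteins that serve it. They number 41, of which 13 are typical of fast-twitch fibres, 8 of slow-twitch fibres and 20 are used by both. Each was taken by its symbol, and its measurement was the probe set with the highest mean among those assigned to that symbol alone. All 41 were measured, out of 18820 genes on the array that could be named in this way. They were read across 45 mouse mammary tumours as a record of skeletal muscle RNA in tumours of the mammary fat pad, and across the host groups of the study.

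Every tumour grew from a BALB/c mammary fragment lacking Trp53 that had been placed in the inguinal mammary fat pad of a wild-type BALB/c female host. Hosts were 10 weeks old, had lost their own mammary epithelium by surgery at 3 weeks, and received silicon (Si) ions or a sham exposure 3 days before the transplant, which itself was never irradiated. Outgrowths were followed for 600 days, and a tumour was taken by survival surgery at 1 cm3, frozen and extracted whole. Sham hosts gave 18 tumours, and the irradiated hosts gave 9 after 10 cGy, 10 after 30 cGy and 8 after 80 cGy of Si ions, each tumour on its own Affymetrix array. The question the design asks is whether a tumour differs when only its host was irradiated. Nothing in the labels says which tumours shared a host or a donor, so the spread between tumours may not be that between animals. Host and donor had the same strain, and a transcript could not be assigned to either. Below, a tumour is named by its group and its replicate number.

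A muscle fibre shortens when myosin heads in the thick filament pull on actin in the thin filament, within a repeating unit called the sarcomere whose ends are the Z discs. Calcium released from the sarcoplasmic reticulum binds troponin, moves tropomyosin and frees the actin sites, and calcium pumps then end the contraction. Fast and slow fibres build the same machine from different gene copies of myosin, troponin, calsequestrin and other parts, and fast fibres lean more on glycolysis. Most mouse limb and trunk muscles consist largely of fast fibres, while the slow myosin gene is also the one used in heart ventricle of larger mammals. The inguinal mammary fat pad lies close to muscle of the body wall and thigh.

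The promoters of 4 members on which the results turn are printed to show the sequence around the annotated start of a gene that follows muscle RNA. Myh2, Myh1 and Myh4 are the adult fast myosin heavy chain genes, neighbours on chromosome 11 that lie in this order on the + strand, and Acta1 encodes skeletal muscle actin. Each window holds 300 bases, from RefSeq with build GRCm38.p6, written 5′ to 3′ on the gene's strand, and capitals mark matches to the motifs named after them.
Myh2, chr11:67170777-67171076, + strand: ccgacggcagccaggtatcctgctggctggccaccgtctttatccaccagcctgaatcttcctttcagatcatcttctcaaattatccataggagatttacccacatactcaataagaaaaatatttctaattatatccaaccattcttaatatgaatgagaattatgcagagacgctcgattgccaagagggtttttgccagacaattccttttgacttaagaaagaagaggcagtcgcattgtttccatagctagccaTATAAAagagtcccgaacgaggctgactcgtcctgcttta
Myh1, chr11:67199852-67200151, + strand: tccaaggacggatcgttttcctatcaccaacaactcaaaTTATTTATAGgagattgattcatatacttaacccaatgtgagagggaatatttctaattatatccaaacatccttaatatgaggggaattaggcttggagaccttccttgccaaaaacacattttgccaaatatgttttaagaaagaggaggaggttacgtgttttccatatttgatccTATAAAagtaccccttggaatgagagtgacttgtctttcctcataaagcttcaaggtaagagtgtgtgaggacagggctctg
Myh4, chr11:67237562-67237861, + strand: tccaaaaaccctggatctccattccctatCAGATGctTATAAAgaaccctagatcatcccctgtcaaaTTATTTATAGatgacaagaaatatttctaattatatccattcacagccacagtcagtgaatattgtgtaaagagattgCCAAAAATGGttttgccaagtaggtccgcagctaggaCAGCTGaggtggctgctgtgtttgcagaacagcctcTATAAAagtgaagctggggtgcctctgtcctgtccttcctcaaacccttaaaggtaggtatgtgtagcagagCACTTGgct
Acta1, chr8:123894726-123895025, - strand: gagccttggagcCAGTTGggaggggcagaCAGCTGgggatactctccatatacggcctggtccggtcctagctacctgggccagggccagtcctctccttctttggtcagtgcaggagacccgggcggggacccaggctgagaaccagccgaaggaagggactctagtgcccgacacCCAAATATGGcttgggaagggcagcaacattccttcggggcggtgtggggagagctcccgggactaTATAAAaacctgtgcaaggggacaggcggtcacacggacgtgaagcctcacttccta
The motifs searched on both strands were the E-box CANNTG (the site of MyoD-family factors) with its form CAGCTG, the TATA box as TATAAA, the MEF2 site and the CArG box of serum response factor. The Myh4 window held 3 E-boxes, of which 1 was CAGCTG, with 1 MEF2 match, 1 CArG box and 3 matches to TATAAA. The Myh1 window held no E-box, 1 MEF2 match and 2 matches to TATAAA, and Myh2 had 1 TATAAA and none of the others. The windows run past the annotated start: the Myh2 match begins 10 bases after it, and 1 E-box of Myh4 41 bases after it. In Myh4 and Myh1 a TATAAA on the reverse strand lies inside the MEF2 match. Acta1 held 2 E-boxes, 1 of them CAGCTG, 1 CArG box and 1 TATAAA. Promoter windows were found for 31 of the 41 members, 38 windows in all. CAGCTG stood in a window of 16 of the 31 members (51.6%), against 18.3% of all 27025 genes with a window. A MEF2 match was found for 8 members (25.8%, against 3.70% of all genes) and a CArG box for 4 (12.9%, against 1.81%). Any E-box was found for 26 members (83.9%, against 75.0%), and TATAAA for 7 (22.6%, against 15.7%). These matches describe letters in a window and say nothing of binding in these tumours.

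Levels are log2 expression after RMA, so a step of 1 is a change by a factor of 2. Array medians lay between 5.48 and 5.80, and the median of the whole table was 5.67. Probe sets differ in brightness, so each gene was read across tumours and no gene's level was set directly against another's. The table median was the only level held against all genes. A gene that stays below it may have a dim probe set and need not lack RNA. As a check of the tissue, the mean level of 8 genes of mammary epithelium (such as Epcam, Krt8 and Krt18) had group medians from 10.38 to 10.81, but the lowest tumours of the groups lay between 5.65 and 7.21. Elevation below means a tumour's log2 value minus that gene's median over the 45 tumours, and a gene is called elevated in a tumour where this exceeds 2.

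Most members were high in a few tumours and lower in the rest. In 6 tumours, 30 to 35 of the 41 members were elevated. In 4 more, 7 to 17 were, and in the remaining 35 tumours 3 or fewer were. The 6 tumours came from 3 of the 4 groups: 3 of 18 in sham hosts, 1 of 10 at 30 cGy and 2 of 8 at 80 cGy, with 0 of 9 at 10 cGy. They were 30 cGy tumour 1 with 35 members elevated, sham tumour 15 with 33, 80 cGy tumour 6 with 33, 80 cGy tumour 1 with 32, and sham tumours 14 and 3 with 30 each. The next 4 were 80 cGy tumour 5 with 17, sham tumour 10 with 9, and 30 cGy tumour 3 and 80 cGy tumour 7 with 7 each. No tumour lay between these counts. Of the members, Tpm2, Eno3 and Trdn exceeded the table median in all 45 tumours, Acta1 in 42, Tnni2 in 40 and Des in 36. For Trdn this holds for the brightest of its 19 probe sets (median 6.37), while the medians of the others ran from 2.19 to 5.64, below the table median. The tumour with the most muscle RNA, 30 cGy tumour 1, had the highest value of all 45 for 33 of the 41 members. In bulk RNA a tumour with fewer muscle fibres and one whose fibres hold less RNA cannot be told apart.

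**Figure D1:**
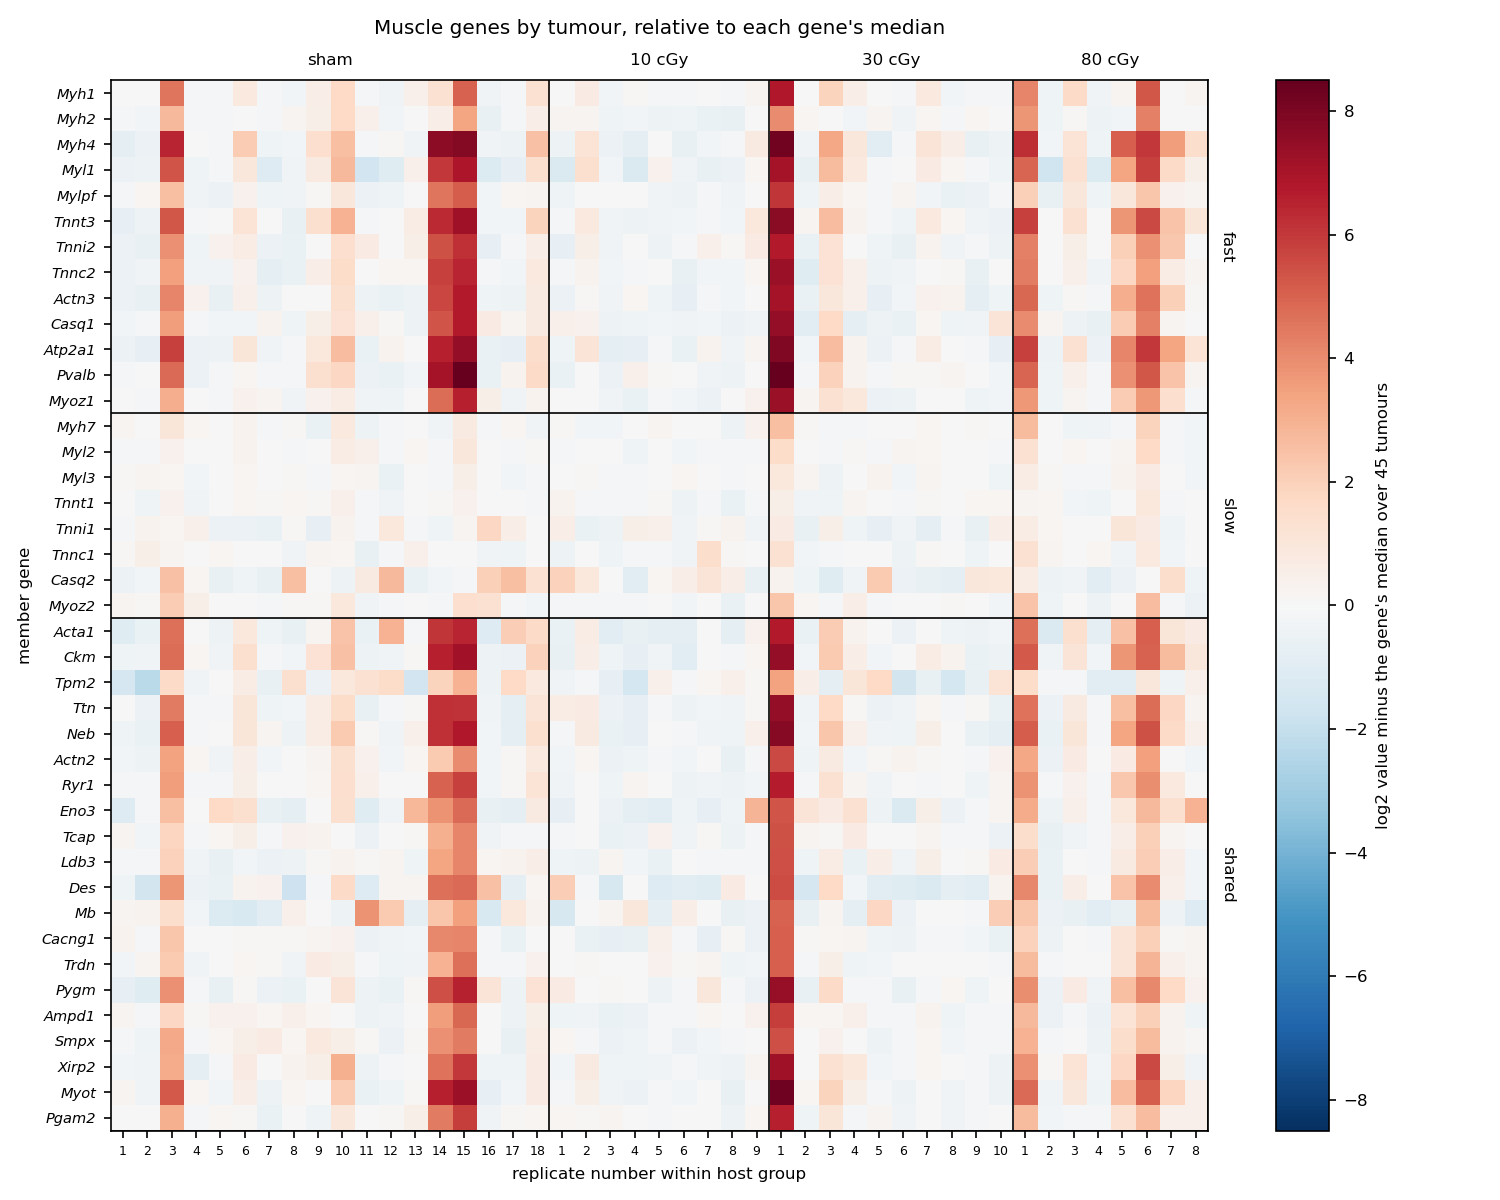
Each cell is the log2 value of 1 member gene (rows, grouped as fast, slow and shared) in 1 tumour (columns, by host group and replicate number) minus that gene's median over the 45 tumours. The 6 dark columns are the tumours with 30 to 35 members elevated, and the slow rows are pale in the same columns.

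These genes were among the most variable on the array. The range from the lowest to the highest tumour had a median of 7.11 log2 over the members, against 1.70 over all 18820 genes. Of the 189 genes with the widest ranges (the highest 1%, from 6.98 upward), 21 were members. The 13 fast members spanned 4.95 (Myh2) to 9.64 (Pvalb), with a median of 8.35, and the 20 shared members 5.44 (Trdn) to 8.95 (Myot), with a median of 6.82. The 8 slow members spanned only 1.46 (Myl3) to 3.76 (Casq2), with a median of 2.37. A probe set that hybridises poorly also has a narrow range, so a narrow range does not measure how little of an RNA there was.

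The motor is taken first. In this and the next paragraphs, the lowest, median and highest tumour of each group are given in that order. Myh4, the myosin heavy chain of the fastest (IIb) fibres, measured 4.21, 4.92 and 12.74 in sham hosts, 4.19, 4.68 and 6.12 at 10 cGy, 4.06, 5.15 and 13.15 at 30 cGy, and 4.55, 7.45 and 11.24 at 80 cGy. At 80 cGy, 4 of the 8 tumours were elevated for Myh4, and at 10 cGy 0 of 9 were. Its slow counterpart Myh7, the myosin of slow and cardiac fibres, measured 3.91, 4.52 and 5.53 in sham hosts, 4.05, 4.49 and 4.86 at 10 cGy, 4.33, 4.55 and 7.08 at 30 cGy, and 4.14, 4.35 and 7.19 at 80 cGy. Only 30 cGy tumour 1 and 80 cGy tumour 1 passed an elevation of 2 for Myh7. Mylpf, the fast regulatory light chain, measured 4.12, 4.64 and 9.77 in sham hosts, 4.18, 4.43 and 4.64 at 10 cGy, 4.01, 4.47 and 10.69 at 30 cGy, and 3.99, 5.26 and 6.95 at 80 cGy. Myl2, the slow and ventricular regulatory light chain, measured 4.35, 4.55 and 5.48 in sham hosts, 4.17, 4.38 and 4.57 at 10 cGy, 4.40, 4.52 and 6.10 at 30 cGy, and 4.33, 4.63 and 6.24 at 80 cGy. Mylpf thus separated the muscle-rich tumours. Myl2 was elevated in 0 of 45, but its whole range was 2.07, so a step of 2 above its median could hardly be passed. Myl2 ranked 1, 2, 3 and 4 of 45 in 80 cGy tumour 6, 30 cGy tumour 1, 80 cGy tumour 1 and sham tumour 15. It ranked 7 and 30 in sham tumours 3 and 14. Myl1, the fast essential light chain, measured 3.35, 4.74 and 11.84 in sham hosts, 3.74, 4.68 and 6.33 at 10 cGy, 4.36, 5.05 and 12.04 at 30 cGy, and 3.30, 6.47 and 10.79 at 80 cGy, and was elevated in 9 tumours. The remaining slow light chain, Myl3, ranged from 3.99 to 5.46 over all tumours and never exceeded the table median of 5.67. Myl3 ranked 1, 2, 3 and 4 in 30 cGy tumour 1, 80 cGy tumours 6 and 1 and sham tumour 15. It ranked 13 and 33 in sham tumours 3 and 14.

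In the thin filament, the 3 subunits of troponin each exist in a fast and a slow copy. Tnnt3, the fast subunit that anchors troponin to tropomyosin, measured 4.82, 5.49 and 12.69 in sham hosts, 5.10, 5.27 and 6.37 at 10 cGy, 4.99, 5.70 and 13.18 at 30 cGy, and 5.47, 7.36 and 11.33 at 80 cGy. Slow Tnnt1 measured 4.59, 4.97 and 5.36 in sham hosts, 4.33, 4.81 and 5.20 at 10 cGy, 4.59, 5.01 and 5.42 at 30 cGy, and 4.59, 4.92 and 5.83 at 80 cGy. Over the 45 tumours Tnnt1 stayed within 4.33 and 5.83 and was elevated in 0. Tnni2, the fast inhibitory subunit, measured 5.55, 6.40 and 12.45 in sham hosts, 5.53, 6.19 and 6.88 at 10 cGy, 5.59, 5.99 and 12.95 at 30 cGy, and 6.18, 7.47 and 10.47 at 80 cGy. Slow Tnni1 measured 4.75, 5.54 and 7.22 in sham hosts, 4.88, 5.57 and 6.04 at 10 cGy, 4.64, 5.12 and 6.14 at 30 cGy, and 5.08, 5.54 and 6.48 at 80 cGy. Its highest value was in sham tumour 16, where 2 members in all were elevated. Tnnc2, the fast calcium-binding subunit, measured 3.66, 4.50 and 10.89 in sham hosts, 3.80, 4.27 and 4.73 at 10 cGy, 3.43, 4.42 and 11.78 at 30 cGy, and 4.13, 4.95 and 8.79 at 80 cGy. Slow and cardiac Tnnc1 measured 4.42, 5.10 and 5.58 in sham hosts, 4.64, 5.01 and 6.57 at 10 cGy, 4.63, 5.03 and 6.40 at 30 cGy, and 4.79, 5.19 and 6.35 at 80 cGy, and its highest tumour, 10 cGy tumour 7, had 0 members elevated. So the fast troponin genes stood out in the muscle-rich tumours, and the single highest values of Tnni1 and Tnnc1 were in others. Among the 45 tumours, 30 cGy tumour 1 and 80 cGy tumours 6 and 1 ranked 2, 1 and 7 for Tnnt1. They ranked 5, 4 and 6 for Tnni1 and 2, 4 and 3 for Tnnc1. Sham tumours 15, 14 and 3 ranked 5, 14 and 4 for Tnnt1, 17, 33 and 18 for Tnni1, and 18, 22 and 7 for Tnnc1. Tnnt1 and Tnnc1 exceeded the table median in only 1 and 4 tumours. Neb, which encodes nebulin along the thin filament, measured 4.14, 5.09 and 11.75 in sham hosts, 4.26, 4.75 and 5.67 at 10 cGy, 4.14, 4.79 and 12.68 at 30 cGy, and 4.36, 6.25 and 10.36 at 80 cGy. Acta1 ranged from 5.42 to 13.33 with 11 tumours elevated, and Tpm2, beta-tropomyosin, from 6.13 to 11.89 with 2. Tpm2 lay above the table median in all 45 tumours, and smooth muscle and myoepithelial cells also use it.

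Genes of the Z disc and of the elastic filament were high in the same tumours. Actn3, the alpha-actinin of fast fibres, measured 4.72, 5.12 and 12.08 in sham hosts, 4.62, 5.09 and 5.46 at 10 cGy, 4.55, 5.32 and 12.42 at 30 cGy, and 4.98, 6.40 and 10.20 at 80 cGy. Actn2, the alpha-actinin of all fibres and heart, measured 4.40, 5.02 and 8.84 in sham hosts, 4.18, 4.60 and 4.98 at 10 cGy, 4.46, 4.93 and 10.43 at 30 cGy, and 4.31, 5.18 and 8.36 at 80 cGy. Actn2 is paired with Actn3 here but is counted among the shared members. Myoz1, the calsarcin of fast fibres, measured 4.41, 4.93 and 11.41 in sham hosts, 4.21, 4.66 and 5.20 at 10 cGy, 4.27, 4.76 and 12.14 at 30 cGy, and 4.44, 5.65 and 8.49 at 80 cGy. Myoz2, the calsarcin of slow fibres and heart, measured 3.52, 3.88 and 6.00 in sham hosts, 3.23, 3.68 and 3.85 at 10 cGy, 3.56, 3.85 and 6.19 at 30 cGy, and 3.29, 3.76 and 6.42 at 80 cGy. Myoz2 was elevated in 4 tumours, all of them among the 6 richest in muscle RNA, whereas Myoz1 was elevated in 7. Ttn, which encodes the giant spring protein titin, measured 4.11, 4.79 and 11.04 in sham hosts, 4.15, 4.61 and 5.57 at 10 cGy, 4.26, 4.79 and 12.32 at 30 cGy, and 4.32, 6.10 and 9.60 at 80 cGy. Myot, which encodes the Z disc protein myotilin, measured 3.60, 4.42 and 11.58 in sham hosts, 3.69, 4.10 and 4.82 at 10 cGy, 3.85, 4.25 and 12.55 at 30 cGy, and 3.95, 5.68 and 9.46 at 80 cGy. Both were highest in 30 cGy tumour 1, and at 10 cGy neither reached 5.67. Of the others, Tcap (the titin cap) ranged from 4.10 to 10.12, Ldb3 (a Z disc adaptor) from 5.07 to 11.13 and Des (the muscle intermediate filament) from 4.84 to 12.17. Smpx ranged from 3.19 to 9.32 and Xirp2, an actin-binding protein, from 3.21 to 11.24. These 5 were elevated in 4, 5, 9, 6 and 7 tumours in that order, and all were highest in 30 cGy tumour 1.

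Calcium is stored by calsequestrin, released by the ryanodine receptor and pumped back by SERCA. Casq1, calsequestrin of fast fibres, measured 4.09, 4.81 and 11.31 in sham hosts, 4.09, 4.23 and 4.96 at 10 cGy, 3.58, 4.24 and 12.00 at 30 cGy, and 3.95, 4.79 and 8.81 at 80 cGy. Casq2, that of slow fibres and heart, measured 3.75, 4.35 and 7.14 in sham hosts, 3.53, 4.93 and 6.37 at 10 cGy, 3.38, 4.05 and 6.61 at 30 cGy, and 3.45, 4.08 and 5.89 at 80 cGy. Casq2 followed neither the fast nor the slow genes: its highest values were in sham tumours 12 and 17, in which only 3 and 2 members were elevated. It was elevated in 6 tumours in all, of which sham tumour 3, at 6.88, was the only muscle-rich one. Casq2 is counted in the slow mean given below. Atp2a1, the fast-fibre calcium pump SERCA1, measured 4.83, 5.49 and 13.02 in sham hosts, 4.77, 5.22 and 6.65 at 10 cGy, 4.89, 5.47 and 13.39 at 30 cGy, and 5.04, 7.88 and 11.54 at 80 cGy. Pvalb, parvalbumin, the calcium buffer of fast fibres, measured 3.18, 3.67 and 12.26 in sham hosts, 3.20, 3.70 and 4.16 at 10 cGy, 3.51, 3.83 and 12.83 at 30 cGy, and 3.40, 5.17 and 9.05 at 80 cGy. Its 10 cGy values stayed within 3.20 and 4.16, and its sham values reached 12.26. Ryr1, the release channel, ranged from 4.64 to 11.75, Cacng1, a subunit of its voltage sensor, from 4.45 to 10.27, and Trdn, triadin, from 6.00 to 11.44. They were elevated in 7, 5 and 6 tumours.

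Genes of energy supply came next. Ckm, muscle creatine kinase, measured 5.35, 5.83 and 12.94 in sham hosts, 4.95, 5.54 and 6.36 at 10 cGy, 5.23, 5.96 and 13.27 at 30 cGy, and 5.53, 7.69 and 11.00 at 80 cGy. Pygm, muscle glycogen phosphorylase, measured 4.56, 5.51 and 12.11 in sham hosts, 5.07, 5.56 and 6.55 at 10 cGy, 4.94, 5.45 and 12.96 at 30 cGy, and 5.08, 6.77 and 9.68 at 80 cGy. Each of these was highest in 30 cGy tumour 1, next in sham tumour 15. Eno3 (muscle enolase) ranged from 5.99 to 12.52, Pgam2 (muscle phosphoglycerate mutase) from 4.40 to 11.57, Ampd1 (muscle AMP deaminase) from 3.72 to 10.17 and Mb (myoglobin, the oxygen store) from 4.57 to 10.91. Eno3 lay above the table median in all 45 tumours. Ampd1 and Pgam2 were elevated in 5 and 6 tumours, Mb in 8 and Eno3 in 9.

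**Figure D2:**
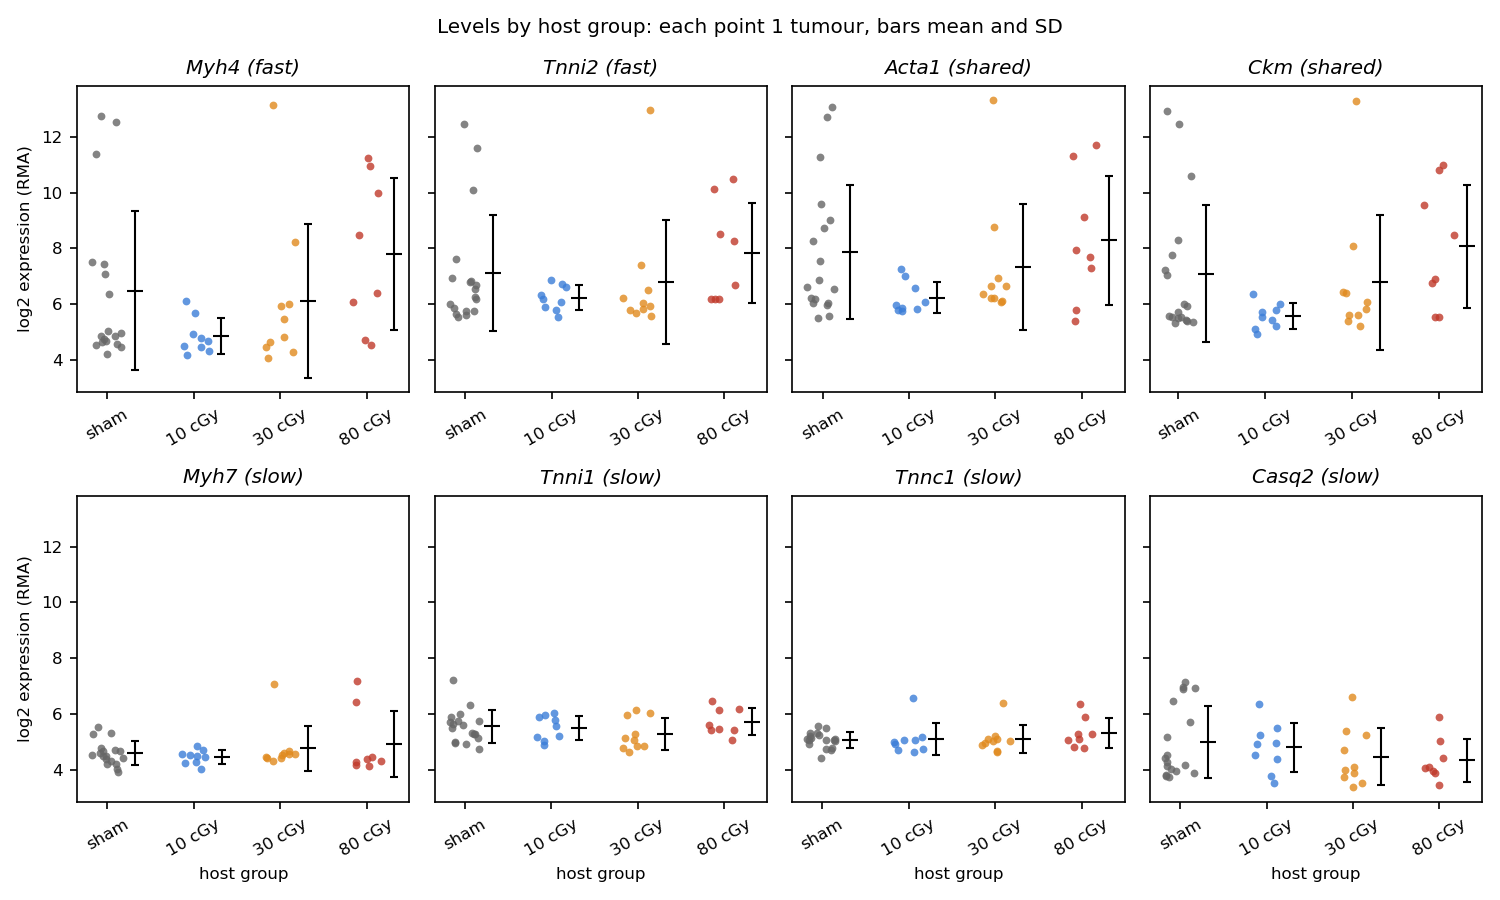
Each point is the log2 expression of 1 tumour in its host group, with the mean and SD of the group beside it, for 4 members with wide ranges (upper row: Myh4, Tnni2, Acta1 and Ckm) and 4 slow members (lower row: Myh7, Tnni1, Tnnc1 and Casq2). In the upper row single tumours of the sham, 30 cGy and 80 cGy groups reach 10 or more, while the highest 10 cGy value is 7.25, for Acta1.

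The balance of fast and slow genes was then compared among tumours. The mean elevation of the 13 fast members was 7.13 in 30 cGy tumour 1, 6.48 in sham tumour 15, 5.15 in sham tumour 14, 4.66 in 80 cGy tumour 6, 4.54 in 80 cGy tumour 1 and 4.29 in sham tumour 3. The mean elevation of the 8 slow members in the same tumours was 1.28, 0.52, -0.13, 1.17, 1.23 and 0.88. In the 35 tumours with 3 or fewer members elevated, the slow mean ran from -0.25 (80 cGy tumour 4) to 0.59 (sham tumour 16). The slow means of sham tumours 15 and 14 lay within that range and cannot be read as slow-fibre content. Sham tumour 14 came after only 30 cGy tumour 1 and sham tumour 15 by its fast genes and had the lowest value of the 6 for each of the 8 slow genes. Its slow values lay between 3.69 and 5.13, all below the table median of 5.67, where the order of values is not reliable. A mean fast elevation above 2 was reached by 7 tumours, the other being 80 cGy tumour 5 with 2.49, and a mean slow elevation above 2 by 0. In the 4 tumours with 7 to 17 members elevated, the slow mean lay between -0.22 and 0.36 beside fast means of 1.58 to 2.49.

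**Figure D3:**
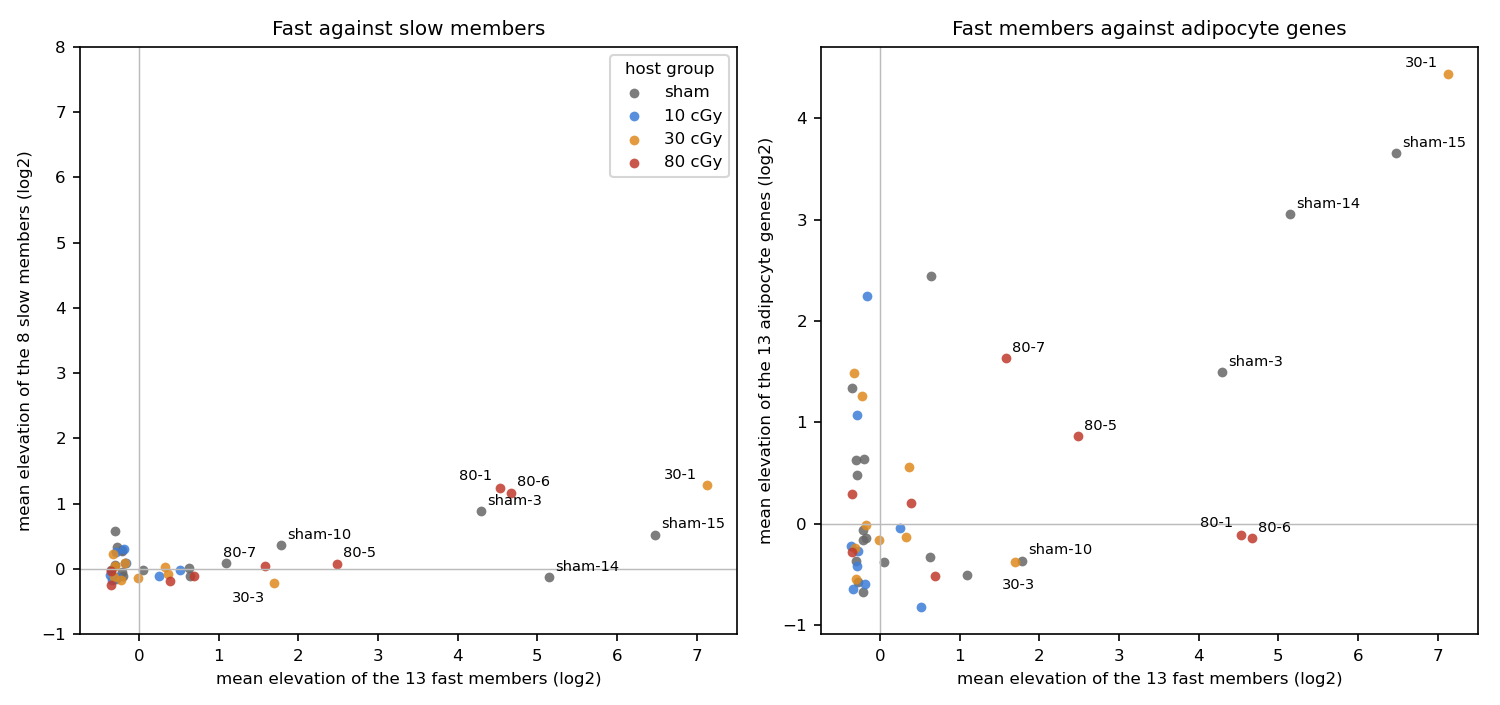
Both panels have the mean elevation of the 13 fast members on the x axis (log2), with 1 point for each of the 45 tumours, coloured by host group, and labels giving group and replicate for tumours with 7 or more members elevated. The left panel shows the 8 slow members on the y axis, which reach 1.28 at a fast value of 7.13, and the right panel the 13 adipocyte genes, which reach 4.44 in 30 cGy tumour 1 but lie near 0 in 80 cGy tumours 1 and 6.

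The 3 fast myosins did not order the 6 muscle-rich tumours alike. Myh4 measured 13.15 in 30 cGy tumour 1, 12.74 in sham tumour 15, 12.53 in sham tumour 14, 10.96 in 80 cGy tumour 6, 11.24 in 80 cGy tumour 1 and 11.40 in sham tumour 3. Myh1, the IIx myosin, measured 10.28 in 30 cGy tumour 1, 8.49 in sham tumour 15, 4.74 in sham tumour 14, 8.74 in 80 cGy tumour 6, 7.63 in 80 cGy tumour 1 and 8.01 in sham tumour 3. Myh2, the IIa myosin of fast oxidative fibres, measured 8.74 in 30 cGy tumour 1, 8.04 in sham tumour 15, 5.23 in sham tumour 14, 9.01 in 80 cGy tumour 6, 8.45 in 80 cGy tumour 1 and 7.47 in sham tumour 3. Sham tumour 14 thus ranked 3 of all 45 tumours for Myh4, but its Myh1 and Myh2 values were the lowest of the 6. Its Myh1 value lay among those of the 35 tumours with few members elevated, as its slow genes did. 80 cGy tumour 6 showed the other order, with the highest Myh2 of all 45 tumours and the lowest Myh4 of the 6. Slow Myh7 measured 7.08 in 30 cGy tumour 1, 5.27 in sham tumour 15, 4.21 in sham tumour 14, 6.42 in 80 cGy tumour 6, 7.19 in 80 cGy tumour 1 and 5.53 in sham tumour 3. Slow Myl2 measured 6.10 in 30 cGy tumour 1, 5.48 in sham tumour 15, 4.45 in sham tumour 14, 6.24 in 80 cGy tumour 6, 5.82 in 80 cGy tumour 1 and 4.93 in sham tumour 3. Slow Myoz2 measured 6.19 in 30 cGy tumour 1, 5.26 in sham tumour 15, 3.69 in sham tumour 14, 6.42 in 80 cGy tumour 6, 6.23 in 80 cGy tumour 1 and 6.00 in sham tumour 3. Across these 6 tumours the 80 cGy pair and 30 cGy tumour 1 held the 3 highest values of Myh7 and of Myoz2, and the same 3 tumours those of Myl2. Actn2, Mb and Xirp2 of the shared list also placed sham tumour 14 lower than its fast genes did: it ranked 6, 5 and 4 of the 6 for them, and Mb measured 10.91 in 30 cGy tumour 1, 9.42 in sham tumour 15, 8.23 in sham tumour 14, 8.60 in 80 cGy tumour 6, 8.25 in 80 cGy tumour 1 and 7.38 in sham tumour 3.

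**Figure D4:**
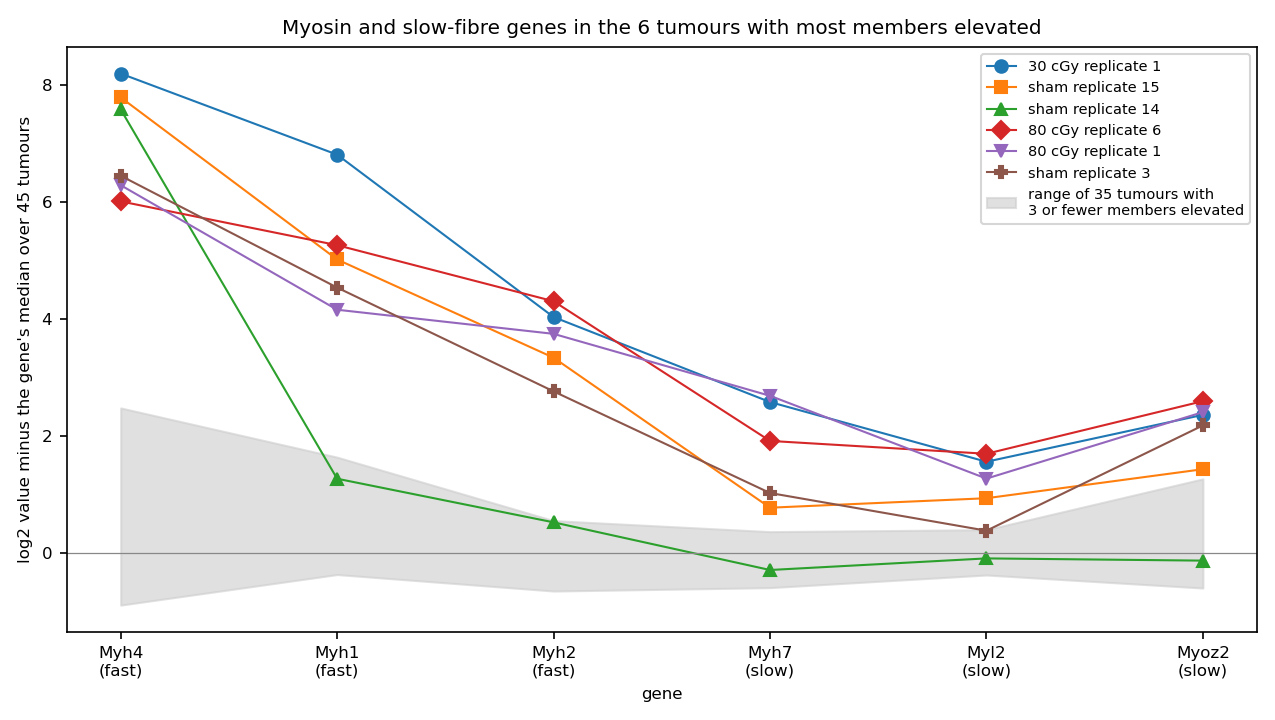
The y axis is the log2 value minus the gene's median over the 45 tumours, for 3 fast myosin genes and 3 slow-fibre genes along the x axis, with 1 line for each of the 6 tumours with 30 or more members elevated and a grey band for the range of the 35 tumours with 3 or fewer. Sham tumour 14 falls into the band from Myh1 onward, while 80 cGy tumours 1 and 6 and 30 cGy tumour 1 stay above it throughout.

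Probe sets of 1 gene need not rank tumours alike. Ttn had 2 probe sets with its symbol alone. The main one measured 12.32 in 30 cGy tumour 1, 11.01 in sham tumour 15, 11.04 in sham tumour 14, 9.60 in 80 cGy tumour 6, 9.43 in 80 cGy tumour 1 and 9.26 in sham tumour 3. The second measured 9.07, 8.07, 7.58, 9.04, 9.26 and 5.72 in the same tumours, and so was highest in 80 cGy tumour 1. Which part of the transcript each probe set reads is not given in the sources used here. Trdn had 19 probe sets, with ranges from 3.08 to 9.15 and a median of 6.00, and 18 of them were highest in 30 cGy tumour 1. The 2 probe sets of Ckm were both highest in 30 cGy tumour 1 and next in sham tumour 15.

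Single members were also elevated in tumours without the rest of the group. Of the 35 tumours with 3 or fewer members elevated, 13 had at least 1, which gave 17 values in 6 genes. Casq2 was elevated in 5 of them: it measured 7.14 in sham tumour 12, 6.96 in sham tumour 17, 6.92 in sham tumour 8, 6.61 in 30 cGy tumour 5 and 6.46 in sham tumour 16. The 12 genes of smooth muscle and myoepithelium had mean elevations of 2.47, 2.49, 1.96, 2.60 and -0.73 in the same 5 tumours, the first 4 of which are among the 5 highest of all 45 for that list; its part in the Casq2 values was not tested. Mb measured 9.75 in sham tumour 11, 8.15 in sham tumour 12 and 8.01 in 30 cGy tumour 10. Acta1 was elevated in sham tumours 12 (9.60) and 17 (8.73), Des in sham tumour 16 (9.10) and 10 cGy tumour 1 (8.70), and Eno3 in 80 cGy tumour 8 (10.13), 10 cGy tumour 9 (10.07) and sham tumour 13 (10.01). Myh4 was the only member past the step of 2 in sham tumours 18 (7.43) and 6 (7.09), but it did not rise alone there. The mean elevation was 1.09 for the fast and 0.74 for the shared members in sham tumour 18, and 0.63 and 0.47 in sham tumour 6. Apart from Myh4, none of these 6 genes is a fast-fibre member.

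Other genes of muscle were read by pathway in the same tumours, and the number elevated differed among the lists and the tumours. The 27 measured of 31 other sarcomere genes had mean elevations of 1.63 to 3.82 in the 6 muscle-rich tumours and of -0.34 to 0.17 in the 35 with few members elevated. Of them, 21 were elevated in 30 cGy tumour 1, 16 in sham tumour 15, 13 in sham tumour 14, 14 in 80 cGy tumour 6, 11 in 80 cGy tumour 1 and 8 in sham tumour 3. The widest ranges were those of Mybpc2 and Mybpc1, the fast and slow myosin-binding proteins C, and Klhl41, which reached 11.56, 11.10 and 11.49 in 30 cGy tumour 1. The 14 measured of 15 other calcium handling genes had 0.59 to 2.82 against -0.26 to 0.22, led by Cacna1s (the voltage sensor of the muscle membrane), Jph1 and Hrc. In the same order 11, 6, 5, 1, 1 and 1 of these 14 were elevated. The 21 measured of 23 other muscle metabolism genes had 0.97 to 4.24 against -0.36 to 0.43, and 18, 18, 11, 4, 3 and 4 of them were elevated in that order. Their widest ranges were those of Car3, which fat also expresses, Cox8b and Fabp3. Fabp3 was highest at 11.48 in 30 cGy tumour 7, in which 0 members were elevated. Among these lists the largest gap between tumours was that of the metabolism genes, with 30 cGy tumour 1 at 4.24 and 80 cGy tumour 6 at 0.97.

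Genes of muscle stem cells and of muscle formation were read as a separate list. Of 18 such genes, 7 never exceeded 5.67 in any tumour: Pax7 and Myf5 of satellite cells, the differentiation factor Myog, the embryonic and neonatal myosins Myh3 and Myh8, and the receptor subunits Chrng and Chrnd. The others exceeded it in at least 1 tumour, Actc1 in 41 and Ncam1 and Mef2c in all 45. Pax7 ranged from 4.29 to 5.23 and Myog from 3.03 to 4.02. Myf6, the factor of the same family that persists in adult fibres, was elevated in 7 tumours and reached 9.17 in 30 cGy tumour 1. Myod1 was elevated in that tumour alone, at 6.59. Actc1, the cardiac and fetal actin, was highest in 30 cGy tumour 10 (11.39), and Pax3 in 30 cGy tumour 6 (9.20), neither of them among the 10 tumours with 7 or more members elevated. The list's mean elevation was 0.57 to 1.25 in the 6 tumours and -0.17 to 0.48 in the 35. Whether the muscle RNA came from host fibres taken with the tumour was not tested.

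Markers of neighbouring cell types differed among the 6 tumours. Of 14 adipocyte genes, 13 were measured, and their mean elevation was 4.44 in 30 cGy tumour 1, 3.66 in sham tumour 15, 3.06 in sham tumour 14 and 1.50 in sham tumour 3, but -0.11 and -0.14 in 80 cGy tumours 1 and 6. In the 35 tumours with few members elevated it ran from -0.83 to 2.45. Of these genes, 12, 10, 8 and 3 were elevated in the first 4 tumours and 0 in the 2 tumours at 80 cGy. Pck1 (an enzyme of glycerol and glucose synthesis), Cidec (a lipid droplet protein) and Retn (resistin, secreted by fat cells) had the widest ranges and reached 11.73, 12.24 and 12.26 in 30 cGy tumour 1. Ucp1, the marker of brown fat, stayed between 3.29 and 4.14 in all tumours. So fat and muscle genes were high together in 3 tumours of sham or 30 cGy hosts, and muscle genes without fat genes in the 80 cGy pair. The part of fat tissue in the values of the members was not tested. By group, the mean level of the adipocyte list ran from 5.18 to 9.51 in sham hosts, 5.03 to 8.09 at 10 cGy, 5.30 to 10.29 at 30 cGy and 5.34 to 7.49 at 80 cGy.

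Markers of heart muscle and of other cells were read in the same tumours. Nppa, Mybpc3 and Ryr2, which mark heart muscle, never exceeded the table median, and the mean elevation of the 9 measured heart genes was 0.29 to 1.06 in the 6 tumours and -0.25 to 0.35 in the 35 with few members elevated. All of the 6 but 80 cGy tumour 6 lay above these 35, with 1 or 2 heart genes elevated in each of the 6. The upper end was sham tumour 3, which had the highest Nppb of all (11.36), while Tnnt2 was highest in 80 cGy tumour 5 (10.77) and Myl7 in 10 cGy tumour 2 (7.63). Skin genes had a mean elevation of 2.86 in sham tumour 3 and of -0.25 to 0.31 in the other 5. The widest ranges were those of Krt1, Krtdap and Krt10, all highest in 10 cGy tumour 5. The smooth muscle and myoepithelial list had -0.67 to 1.19 in the 6, with Krt5, Oxtr and Krt14 ranging widest. The epithelial list had -1.61 to 0.51, with Krt19, Epcam and Cldn4 ranging widest. The nerve list, led by Nefl, had -0.96 to 0.06 and the erythroid list, led by Alas2, -0.57 to 1.69. Each of the lists for skin, smooth muscle, epithelium, nerve and erythroid cells had a mean elevation below 0 in at least 1 of the 6 tumours.

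The host groups were compared with limma over the 12123 genes that exceeded the table median in at least 8 tumours, with adjustment over all of them (Benjamini-Hochberg, two-sided, threshold 0.05). Only 28 members passed this filter. The 13 others were the fast Myh1, Myh2 and Mylpf, the slow Myh7, Myl2, Myl3, Tnnt1, Tnnc1 and Myoz2, and the shared Tcap, Cacng1, Ampd1 and Smpx. A gene high in fewer than 8 tumours cannot pass, so the 28 do not stand for the whole list, and only 2 slow genes, Tnni1 and Casq2, were tested. The 4 comparisons share the 18 sham tumours, so a low or high sham value moves them together. Most members also rise together in the same few tumours. A count of members above or below sham is therefore not a count of independent genes, unlike what a share over all genes may seem to offer beside it.

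No difference between host groups was called for any member. In Si-irradiated hosts of the 3 doses together, 0 of 28 members were called, as were 0 of 12123 genes (0%), and 0 members had an unadjusted p under 0.05, a level that 3.51% of all genes reached as higher and 2.32% as lower. All 28 members had a lower mean than sham, against 46.8% of all genes, and the median difference was -0.22, against 0.01 over all genes. The lowest adjusted p of a member was 0.910, for Casq2, whose difference was -0.46 ± 0.32 (SE, limma). This median changed direction when 1 sham tumour was left out: it was 0.09 without sham tumour 15 and 0.04 without sham tumour 14, and it was 0.08 without the 6 muscle-rich tumours (chosen after seeing the data).

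The tumours of 10 cGy hosts were compared with those of sham hosts in the same way. All 28 had a lower mean than sham, against 48.2% of all genes, with a median difference of -1.03, against 0.01 over all genes. The call rate was again 0 of 28 and 0 of 12123 (0%), and 0 members reached an unadjusted p under 0.05, which 1.64% of all genes did as lower and 2.01% as higher. Acta1 measured 7.88 ± 2.41 (SD, n = 18) in sham hosts, 6.24 ± 0.56 (n = 9) at 10 cGy, 7.33 ± 2.25 (n = 10) at 30 cGy and 8.29 ± 2.32 (n = 8) at 80 cGy. The 10 cGy values of Acta1 all lay within the sham range, and the difference from sham was -1.64 ± 0.84 (SE), with an adjusted p of 0.991 by limma. For Ckm the difference was -1.52 ± 0.86 and for Myh4 -1.62 ± 1.00, with the same adjusted p of 0.991. As for Acta1, the SD at 10 cGy was below that of sham hosts, 0.45 against 2.46 for Ckm and 0.65 against 2.85 for Myh4. The limma fit takes the same spread for all groups, and its SE and p at 10 cGy rest on this. No fit with a separate spread for each group was run. Without the 6 muscle-rich tumours, 3 of them sham, the median member difference at 10 cGy was -0.26. Without sham tumour 15 alone it was -0.71. An exact rank-sum test of each gene put 3 members lower at 10 cGy before adjustment. By this test they were Ryr1 (p = 0.0035), Casq1 (p = 0.0146) and Actn2 (p = 0.0146). After adjustment 0 members were lower (lowest adjusted p 0.994). Every 10 cGy value of Ryr1, Casq1 and Actn2 lay below the table median, with highest values of 5.30, 4.96 and 4.98. Their sham medians, 5.12, 4.81 and 5.02, lay below it too. The order of values there is not reliable, so the rank-sum test cannot decide whether these genes were lower. The same test gave an unadjusted p under 0.05 to 1.6% of all genes as lower and to 1.71% as higher.

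At 30 cGy, 25 of 28 members had a lower mean than sham, against 50.8% of all genes, and Myl1, Ldb3 and Mb a higher one. The median difference was -0.22, against -0.003 over all genes. Calls were 0 of 28 and 0 of 12123 (0%), and 0 members had an unadjusted p under 0.05, which 2.03% of all genes had as higher and 2.43% as lower. Here 1 tumour moved the median most: without 30 cGy tumour 1 the median difference was -0.91, and without sham tumour 15 it was 0.11. Ttn measured 5.84 ± 2.24 (SD, n = 18) in sham hosts, 4.76 ± 0.49 (n = 9) at 10 cGy, 5.61 ± 2.45 (n = 10) at 30 cGy and 6.60 ± 2.06 (n = 8) at 80 cGy.

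At 80 cGy the direction was the other one: 3 of 28 members, Casq2, Tpm2 and Mb, had a lower mean than sham, against 43.4% of all genes, and 25 a higher one. The median difference was 0.63, against 0.03 over all genes, and all 10 fast members tested lay above 0. Calls were 0 of 28 and 0 of 12123 (0%), and 0 members had an unadjusted p under 0.05, which 4.78% of all genes had as higher and 2.19% as lower. Myh4 measured 6.48 ± 2.85 (SD, n = 18) in sham hosts, 4.86 ± 0.65 (n = 9) at 10 cGy, 6.11 ± 2.76 (n = 10) at 30 cGy and 7.81 ± 2.73 (n = 8) at 80 cGy. These values overlapped with those of every other group, and the difference from sham was 1.33 ± 1.04 (SE), with an adjusted p of 0.846 by limma. Atp2a1 had the largest difference, 1.39 ± 0.98 with an adjusted p of 0.818, and Ckm differed by 0.98 ± 0.89 with 0.884. Slow Casq2 lay lower by -0.65 ± 0.45, with the lowest adjusted p of a member, 0.814. Single tumours moved this median: it was 0.20 without 80 cGy tumour 6, 0.31 without 80 cGy tumour 1 and 0.88 without sham tumour 15. Without the 6 muscle-rich tumours it was 0.49, and 0 members were called. At an unadjusted p under 0.05 (limma), 9 of 28 members were then higher and 0 lower. Of all genes, 6.34% were higher and 2.26% lower at that level. The tumours left out were picked by the members' own values, so the count of 9 is no test of the members. Those kept at 80 cGy include tumours 5 and 7, with 17 and 7 members elevated.

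**Figure D5:**
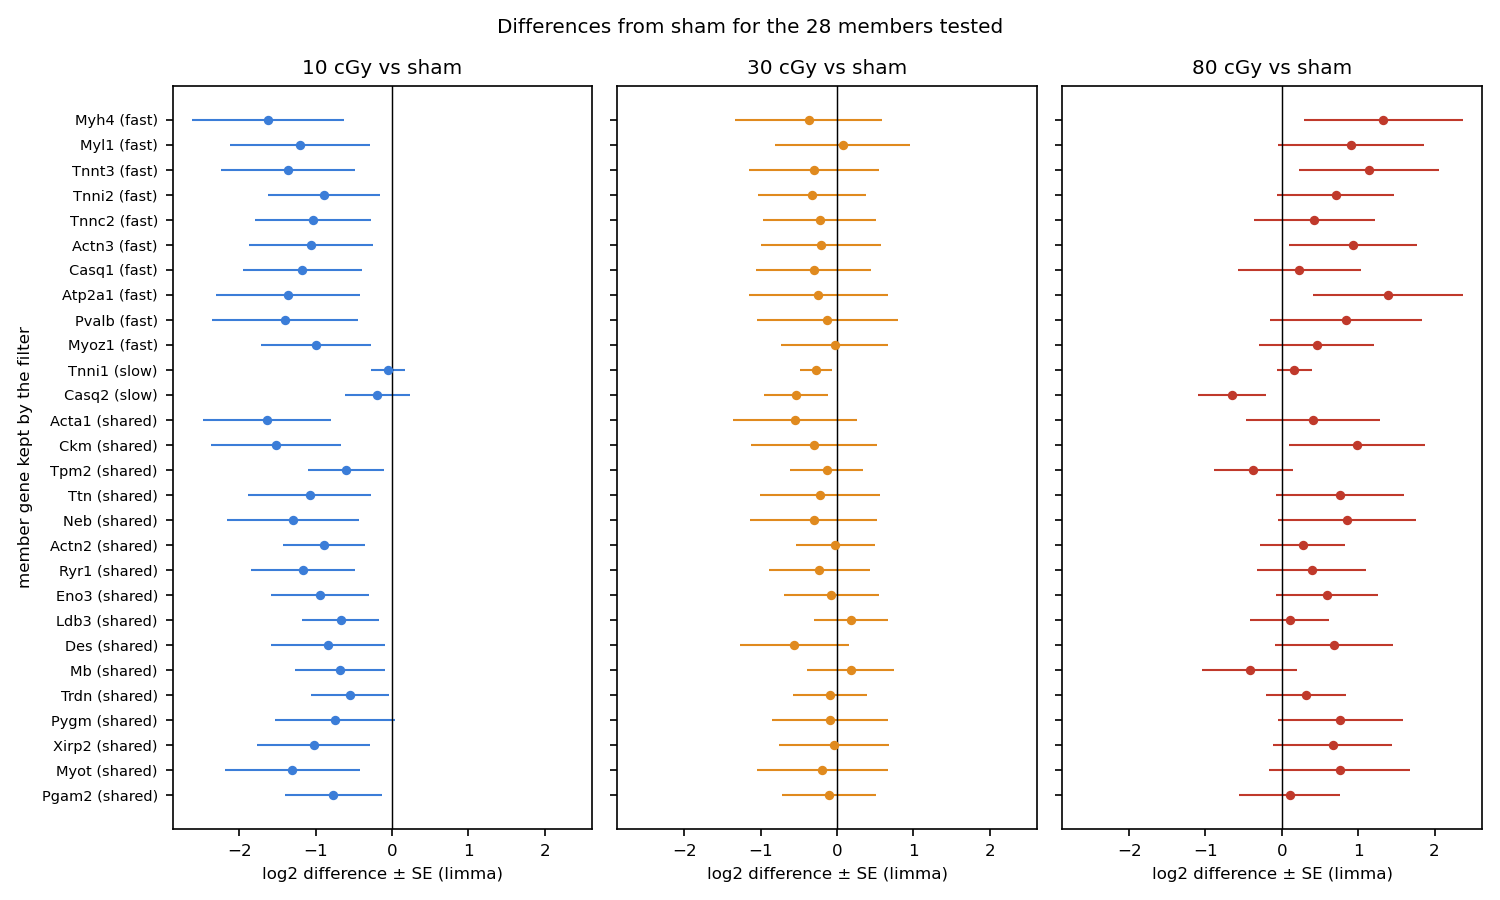
Points are the log2 differences from sham of the 28 members tested, with bars for the standard error from limma, in 1 panel for each dose. All points lie left of 0 at 10 cGy, most lie near 0 at 30 cGy and most lie right of 0 at 80 cGy, and in no panel was a member called.

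Over the 4 groups together, limma's F test called 0 members and 0 of 12123 genes (0%), with 0 members at an unadjusted p under 0.05, which 4.13% of all genes reached. The lowest member p was 0.114 and its adjusted value 0.985. Among the 3 doses alone, without sham, 0 members and 0 genes (0%) were called. Myh4 had the lowest member p, 0.0562, with an adjusted p of 0.999. In the other muscle lists and the cell type lists, 0 genes were called in any of the 4 comparisons. At 10 cGy, 12 of 14 tested genes of the other sarcomere list, 7 of 7 of the calcium list, 15 of 16 of the metabolism list and 11 of 11 adipocyte genes had a lower mean than sham. So did 5 of 5 genes of the muscle stem cell list, 8 of 12 smooth muscle and myoepithelial genes and 2 of 8 epithelial genes, against 48.2% of all genes. At 80 cGy, 12 of the 14 other sarcomere genes had a higher mean, and 10 of the 11 adipocyte genes a lower one, while the calcium list had 4 higher and 3 lower and the metabolism list 7 higher and 9 lower. The muscle stem cell list had 3 higher and 2 lower, the smooth muscle and myoepithelial list 2 higher and 10 lower, and the epithelial list 8 higher and 0 lower. Of all genes, 43.4% were lower at 80 cGy. By tumour, the mean elevation of the fast members had a median of -0.19 in sham hosts (range -0.36 to 6.48), -0.28 at 10 cGy (-0.36 to 0.52), -0.10 at 30 cGy (-0.33 to 7.13) and 1.13 at 80 cGy (-0.36 to 4.66). The slow mean had medians of 0.07, -0.09, -0.03 and 0.01 in that order. A tumour with a fast mean below 0 was present in every group.

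The labels give each tumour a short code whose meaning they do not state, and in 8 cases a pair of tumours shares the part before a final L or R. In 1 such pair at 80 cGy, tumour 6 had 33 members elevated and tumour 7 had 7. In another, sham tumour 14 had 30 and sham tumour 13 had 1. In the 6 other pairs each tumour had 3 or fewer.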

How the data were processed

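Total RNA of 45 tumours was measured on single-colour Affymetrix arrays. The authors' deposited table holds a log2 value for each probe set, made with RMA in the oligo package, per the submitters' processing notes. RMA makes the value distributions of the arrays alike, so a tumour with much muscle RNA has its other genes shifted slightly. Versions and settings: not given in the sources used here. Groups and replicate numbers were read from the sample titles. The platform annotation gave 1 symbol to 21218 of 35556 probe sets, several to 1881 and none to 12457. Trp53 was not analysed here.

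A gene was represented by its single-symbol probe set with the highest mean. Group means were fitted with limma 3.58.1 in R 4.3.3 (lmFit and eBayes), and errors of its differences are standard errors. The fit was tested on simulated data with independent normal values and the same spread in every group. The members are not like this, so the test does not cover them. The number of arrays limits the precision. The members, the lists of other genes and the tests were chosen with earlier results of these data known. Members given in full are the fast and slow gene of each pair and the 2 with the widest range in each role list. Up to 3 genes with the widest range are named from each other list, and genes singled out beyond these were chosen after their values were seen. Alternatives covered the filter, the choice of probe set, array centring, array weights, a robust prior, a rank-sum test, a slope on dose, blocks, the sham subsets and each tumour left out. Promoter windows of 300 bases around each gene's start come from RefSeq. Coordinates come from GRCm38.p6.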

Additional observations from a re-analysis of the deposited data

Results flagged for a closer look

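In the 10, 30 and 80 cGy groups, the gap between the most extreme tumour and its nearest neighbour was divided by the range of the group, for 24 members and for the fast and slow means. Of 78 such values, 25 exceeded Dixon's critical value for the group's size. Chance alone flags about 1 in 20 where values follow a normal distribution, which genes high in a few tumours do not. Myl1, Neb, Myot, Ttn, Pvalb, Atp2a1, Pygm and Ckm were also examined because of their wide range. As 30 cGy tumour 1 sets the upper end of that range, their flags there were largely fixed by the choice. The values are not independent, since 23 of the 25 come from 1 array, 30 cGy tumour 1, which was the highest of its group.

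For the motor and thin filament genes of that tumour the share was 0.542 for Myh4, 0.875 for Myh7, 0.826 for Mylpf, 0.8 for Myl2 and 0.565 for Myl1. It was 0.618 for Tnnt3, 0.751 for Tnni2, 0.736 for Tnnc2, 0.674 for Tnnc1 and 0.632 for Neb. At the Z disc it was 0.781 for Actn3, 0.812 for Actn2, 0.766 for Myoz1, 0.698 for Myoz2, 0.731 for Myot and 0.714 for Ttn. Among calcium and energy genes it was 0.685 for Casq1, 0.762 for Pvalb, 0.611 for Atp2a1, 0.717 for Pygm and 0.647 for Ckm. The fast mean gave 0.73 and the slow mean 0.699.

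Both remaining values belong to slow genes at 10 cGy. Tnnc1 was highest in tumour 7, with a share of 0.714, and Myoz2 was lowest in tumour 8, with 0.594. Neither the sham group, with 18 tumours, nor the genes given by range alone were examined in this way.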

How the results depend on the processing

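No alternative called a member in any comparison. The lowest adjusted p of a member over the planned settings other than leaving out a tumour was 0.494 for Si hosts, 0.665 at 10 cGy, 0.612 at 30 cGy and 0.402 at 80 cGy. The median member difference kept its direction at 10 cGy and 80 cGy in every setting run, and not in the other comparisons. It ran from -0.77 (sham codes beginning with 6 only) to 0.20 (codes beginning with 5 only) for Si hosts, from -0.77 to 0.21 under the same settings at 30 cGy, from -1.55 to -0.62 at 10 cGy and from 0.02 to 1.08 at 80 cGy. Leaving out each tumour in turn gave -0.44 to 0.09 for Si hosts, -1.11 to -0.71 at 10 cGy, -0.91 to 0.11 at 30 cGy and 0.20 to 0.88 at 80 cGy. Array weights gave -0.58, -1.20, -0.70 and 0.19 in the order Si hosts, 10, 30 and 80 cGy, and called 30 genes at 80 cGy, 0 of them members. With no filter, all 41 members entered and the medians were -0.19, -0.87, -0.12 and 0.39. With a stricter filter 15 members of 10385 genes entered. With the mean of each gene's lowest tumours (1 in 4) as its base, 10 tumours in place of 7 had a fast mean above 2.

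The replicate numbers in the titles do not pair the tumours: the profiles of same-numbered tumours of different groups correlated at -0.52 to 0.34 (52 pairs), and 0 of 37 tumours correlated best with their own number. A fit with the replicate number as a block gave medians of 0.20, -0.62, 0.21 and 1.06. It called 6 genes for Si hosts and 1 at 80 cGy, none of them members.

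These limits hold for the members. The sham, 30 cGy and 80 cGy groups held 3, 1 and 2 muscle-rich tumours and the 10 cGy group 0, and 13 members were tested only without the filter. A value near the floor of the array has no reliable order.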

Other observations

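Actc1, the fetal and cardiac actin, and Mb, myoglobin, were high together in a pair of tumours outside the 10 with 7 or more members elevated. Actc1 measured 11.39 in 30 cGy tumour 10 and 10.42 in sham tumour 11, the highest values of all 45 tumours, and Mb measured 8.01 and 9.75 there. In each of these tumours Mb was the only member elevated. The mean elevation of the smooth muscle and myoepithelial list was 2.04 in the first and 1.16 in the second. Of the other muscle lists, 30 cGy tumour 10 had the highest Fbxo32 (11.14) and Asph (9.06) of all 45 tumours and the second highest Slc2a4 (9.28), and sham tumour 11 had the second highest Cacnb1 (8.03). These tumours were singled out after their values were seen, and no test was run.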
